A study of Homo sapiens with 5 samples.

Results

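The broader peaks called only in full serum are 9711 places in the genome of VCaP cells at which ZBTB7A chromatin immunoprecipitation gave a peak of at least 400 bp in full serum and no overlapping peak in hormone-depleted serum, with or without androgen. They were selected on the peak lists themselves, by peak width and by the lack of any 1 bp overlap with the other lists, on chromosomes 1 to 22 and X. They made up 7.85% (7.70 to 8.0%) of the 123651 full-serum peaks on these chromosomes and 9.47% (9.29 to 9.65%) of the full-serum peaks that had no partner. Width, lack of a partner and, with them, fold enrichment and q-value come from the readout that chose the members, so these values are given as a description without a test.

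ZBTB7A, also named LRF or Pokemon, is a transcription factor with a BTB domain, which binds corepressor complexes, and C-terminal zinc fingers, which bind DNA. It is known as a repressor of fetal globin genes in red cell precursors. In prostate cells it has been studied in the control of growth genes. A ChIP-seq peak is a stretch where immunoprecipitated fragments pile up over the local background, and a peak that is wide against the fragment length can hold several neighbouring contacts or a spread of signal.

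VCaP is an established line from a prostate cancer metastasis that carries the fusion of TMPRSS2 and ERG. All 5 libraries used the same ZBTB7A antibody. Cells in 5% hormone-depleted serum, in phenol red free RPMI, were given vehicle (called CSS, from 2 libraries) or the androgen dihydrotestosterone at 10 nM (called DHT, also from 2 libraries), both over 4 hours. The remaining library, called FBS, came from routine culture in DMEM with 10% full serum. Medium, the amount of serum and its hormones therefore changed together between FBS and the others and cannot be told apart. One treatment text stands on every label, and FBS was read as untreated from the label of its culture. Only a single peak list stands for a condition, which leaves no spread between replicates and no p-value, and the intervals (exact 95% unless another method is named) cover counting error only. Positions are on hg19, no annotation of that build was used here, and the gene names attached to windows below are textbook background rather than a result.

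The lists proved to hold their own depth. Fold enrichment and p-value of a peak together fix the number of fragments over its summit (the pileup) and the background expected there, and whole pileups were recovered for 100% of peaks in each list within an error of 0.001 in −log10 p. Every background above the lowest value, up to 6 times it, was within 0.02 reads of a whole number of reads in 10 kb times a fixed fragment length, which was 191 bp for the CSS list, 198 bp for the DHT list and 215 bp for the FBS list. The lowest background, which the caller sets from the read total, was 0.255 fragments in CSS, 0.192 in DHT and 1.29 in FBS. Per unit of fragment length the FBS list was thus 4.51 times as deep as CSS and 6.21 times as deep as DHT, if the same genome size was set for all. With MACS2's preset human genome size of 2700000000 bp this would be 16.2 M reads in FBS, 3.61 M in CSS and 2.62 M in DHT. Over the lowest background, the smallest pileup called was 3 fragments in CSS and in DHT and 6 in FBS.

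Most members were modest peaks. Their width ran from 400 to 2017 bp with a median of 480 bp, and 1895 (19.5%) reached 600 bp and 93 (0.958%) reached 1000 bp. The summit pileup had a median of 14 fragments, with the middle 90% between 9 and 29, and 133 members (1.37%) had at least 40 fragments. Fold enrichment, the authors' ratio over background, had a median of 4.80 and ran from 1.97 to 20.4, and the median −log10 q was 5.04. For comparison, the 92822 narrower FBS-only peaks had a median pileup of 11 fragments and a fold enrichment of 4.50. The 9981 FBS peaks of at least 400 bp that had a partner stood higher, at 22 fragments and 5.21, but they were also wider, with a median of 617 bp. At like width the fold enrichments were closer. Members and partnered peaks had medians of 4.52 and 4.52 between 400 and 450 bp, 5.35 and 5.69 between 800 and 1000 bp, and 5.98 and 5.90 from 1000 bp. Pileups in these ranges were 13 and 19, 19 and 24, and 23 and 26 fragments. Among members, width went only loosely with strength. Across the 9711 peaks, which share 1 library, Spearman's rho with width was 0.19 for fold enrichment, 0.24 for pileup and 0.29 for −log10 q. The rule cut width at 400 bp, so these values cover a limited range of widths.

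The share of wide peaks without a partner fell steadily with width. Members were 70.3% of FBS peaks between 400 and 450 bp, 53.3% between 500 and 600 bp, 34.8% between 600 and 800 bp and 7.74% of those of at least 1000 bp. Over all widths, 82.9% of FBS peaks had no CSS or DHT partner, and 49.3% of those of at least 400 bp had none. These percentages belong to the contrast that chose the members, so nothing is read from them. At the threshold itself the values ran on without a step: 93 FBS-only peaks were 400 bp wide, with a median fold enrichment of 4.59 and 13 fragments, and 104 were 399 bp wide, with 4.48 and 14 fragments. Just inside, members of 400 bp with a high fold enrichment lay at chr7:42971359-42971758 (7.27) and chr6:46155916-46156315 (6.98). Just outside, the leading peaks of 399 bp lay at chr4:86717869-86718267 (9.16) and chr2:190526181-190526579 (7.22).

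**Figure D1:**
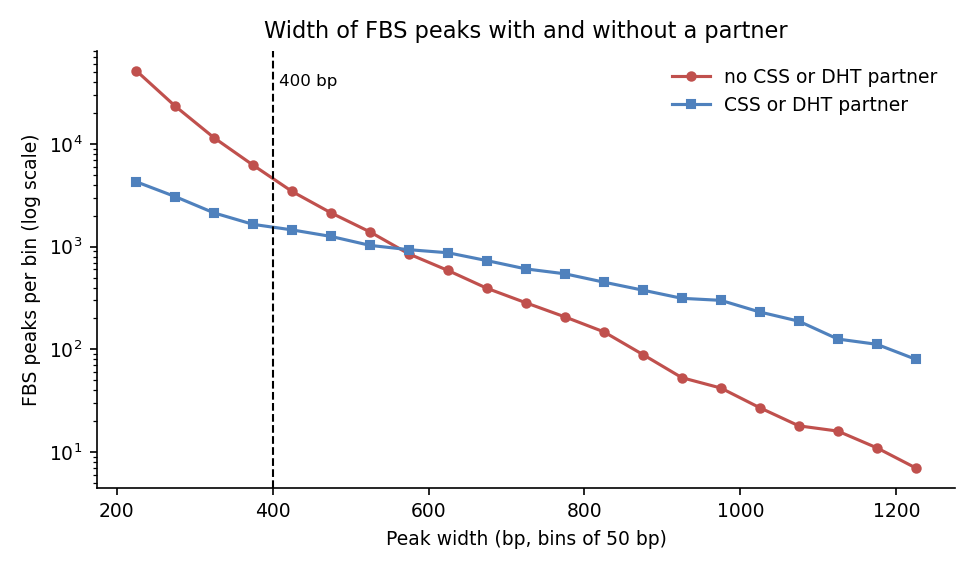
Number of FBS peaks per 50 bp of width (log scale) without (circles) and with (squares) a CSS or DHT partner, on chromosomes 1 to 22 and X. Peaks without a partner fell faster with width, from 3445 between 400 and 450 bp to 27 between 1000 and 1050 bp, while those with a partner went from 1456 to 231; the dashed line marks the 400 bp that defines the members.

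The summit of most members lay in the middle of the peak. It fell within the first or last 25% of the width in 2426 members (24.98%, 24.1 to 25.9%), against 11.5% of the narrower FBS-only peaks and 25.3% of the partnered peaks of at least 400 bp. This share went from 17.8% of members between 400 and 450 bp to 47.6% of those between 800 and 1000 bp. Partnered peaks were wider, and at like width their share was below that of members in every range. It was 11.95% between 400 and 450 bp and 41.1% between 800 and 1000 bp. Between 500 and 600 bp it was 26.1% for members and 19.5% for partnered peaks. From 1000 bp it was 45.2% and 37.4%. The shares by width are a description without intervals. Among the 5 widest were chr7:92462087-92463661 (1575 bp, 24 fragments, fold enrichment 4.30), in the region of the cyclin-dependent kinase gene CDK6, and chr1:235667062-235668568 (1507 bp, 21 fragments, 4.98). Their summits lay 1166 and 613 bp from their starts.

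Among the 12 members at or tied with the 10th place in fold enrichment, 2 lay on chromosome 11 and 2 on chromosome 6. The member chr11:114271279-114271794 had 42 fragments and a fold enrichment of 13.2, and a DHT peak lay 254 bp from it. The member chr11:93970813-93971721 was 909 bp wide with 48 fragments (12.8), and no CSS or DHT peak lay within 100000 bp. On chromosome 6, chr6:20618849-20619294 and chr6:26987686-26988254 both had 27 fragments over the lowest background (12.2). The 2 members on chromosome 11 were high in both pileup and fold enrichment, but a high pileup did not always come with a high fold enrichment. The member with the most fragments, chr16:46392971-46393554 with 146, had a fold enrichment of 3.49. It had 1910 reads in its 10 kb, 31.7 times the lowest background. The next by pileup were chr1:154946389-154946938 with 109 fragments (fold enrichment 5.81) and chr13:110437651-110438351 with 78 (3.08), and these 3 were named after their values were seen. The lists were used without a filter for repeated sequence, so peaks in such regions were not set apart.

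**Figure D2:**
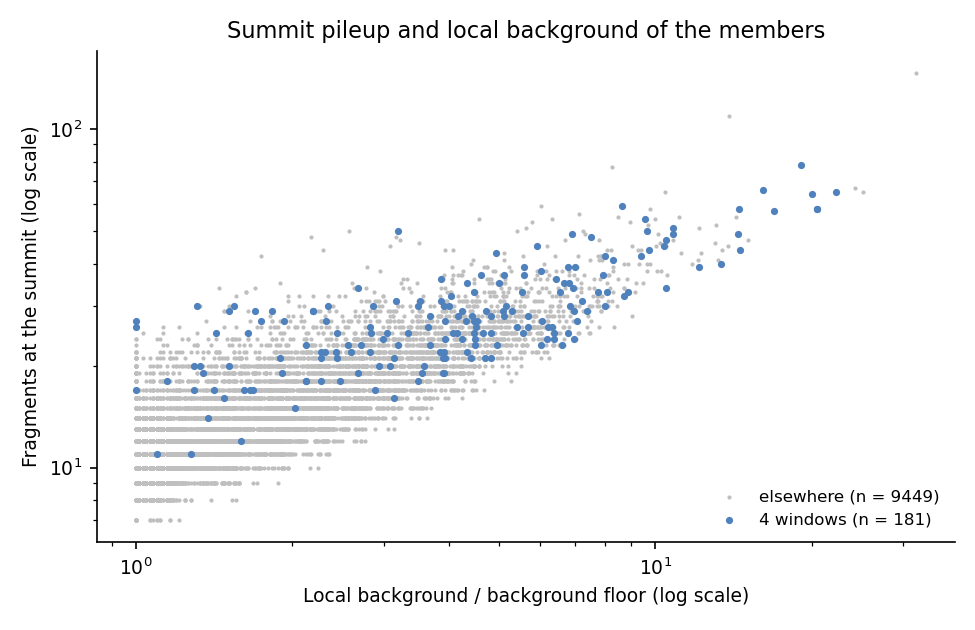
Fragments at the summit against local background, as a multiple of the lowest background, for members on log scales, with those of 4 windows described below in blue and those outside the 5 windows with the most members in grey. The blue points lie toward high background and high pileup, with medians of 23 to 30 fragments by window, against 14 in the grey ones.

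Local background describes how many reads were placed in the 10 kb around a summit. It was at the lowest value in 2747 members (28.3%) and at least 3 times that value in 1659 (17.1%, 16.3 to 17.8%). Among narrower FBS-only peaks 6.52% (6.36 to 6.68%) reached 3 times the lowest value, and among partnered peaks of at least 400 bp 38.3%. No control library is named and the backgrounds showed no scale factor, so the 10 kb count was read as coming from the ChIP library itself. It would then include the reads of the peak and of its neighbours, and would not be independent of the width that chose the members.

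Members were spread over nearly the whole genome and were dense in few places. A member was found in 2369 of the 2882 windows of 1 Mb that held an FBS peak, with a median of 2 members a window, and the members covered 5.07 Mb. The 5 windows with the most members held 262 of them (2.70%), but 127 of the 773 members whose −log10 q reached 10. The windows described below held 18, 12, 8 and 16 of these 127, in the order given.

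A pair of neighbouring windows among the 5 lay on distal 13q, the region of IRS2, an insulin receptor substrate gene, and of COL4A1, a collagen gene. The window from 110000001 to 111000000 held 60 members beside 199 narrower FBS-only peaks (ratio of shares 2.88, 2.12 to 3.86), 23 CSS peaks and 27 DHT peaks. The window from 111000001 to 112000000 held 41 members beside 159 narrower ones (2.46, 1.70 to 3.49), with 47 CSS and 54 DHT peaks. Pileups there were high, with medians of 27.5 and 30 fragments, but fold enrichments were low, with medians of 4.26 and 3.78, beside a median local background of 4.43 and 5.70 times the lowest.

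On 11q13, the window from 63000001 to 64000000 also held 41 members, beside 107 narrower FBS-only peaks (3.66, 2.49 to 5.30), at a median of 27 fragments and a background 6.03 times the lowest. The last of them was the window from 20000001 to 21000000 on chromosome 6, which holds the cell cycle factor gene E2F3. It had 39 members beside 175 narrower FBS-only peaks (2.13, 1.47 to 3.03), 23 fragments in the median and a fold enrichment of 5.57. These windows were ranked by their number of members, so their ratios are a description, and the intervals do not allow for that choice.

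Raised local background in these windows was not limited to the FBS list. In the 13q window from 110000001 the medians were 4.12 times the list's lowest background in CSS, 4.44 times in DHT and 4.37 times in FBS. In the window on chromosome 11 they were 10.6, 14.9 and 6.38 times. In the 13q window from 111000001 they were 7.19, 8.05 and 6.21 times. On chromosome 6 from 20000001 to 21000000 the medians were 2.77 in CSS (15 peaks), 2.79 in DHT (20 peaks) and 2.73 in FBS (228 peaks). Over all peaks of each list the medians were 1.87, 2.17 and 1.16. On chromosome 6 the CSS and DHT lists thus stood closer to their own medians than the FBS list did. The part of copy number in the members of these windows was not tested.

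Members gathered into short runs in a few of these places. Joining members no more than 10 kb apart left 8537 alone and gave 467 pairs, and only 4 runs held 7 or 8. A run of 8 lay at chr11:63387876-63423212 over 35.3 kb with a median of 31.5 fragments. A run of 7 lay at chr13:111636857-111659397, with a median of 30 fragments. Of the 5 runs of 5, those at chr1:149813028-149833297 and chr21:17115061-17134085 lay outside these windows, with medians of 23 and 10 fragments. The run on chromosome 1 was in a cluster of replication-dependent histone genes, which are transcribed in S phase. Runs were not counted among narrower FBS-only peaks, so no comparison is made.

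By chromosome, the members were compared with the narrower FBS-only peaks, since position was not part of the rule. Of the 22 ratios of shares on the autosomes, 8 had an interval that excluded 1, with 3 above and 5 below, and no adjustment was made for comparing all of them. Chromosome 19, which is rich in genes and in clusters of zinc finger genes, had the highest at 1.5 (1.32 to 1.70), and 13.6% of its FBS-only peaks were at least 400 bp wide. Its members were spread over 54 windows. Those from 44000001 to 45000000 and from 52000001 to 53000000, both in zinc finger gene clusters, held 19 and 18. Narrower FBS-only peaks in these windows numbered 53 and 59. The lowest ratios were 0.809 (0.718 to 0.908) on chromosome 10 and 0.823 (0.755 to 0.896) on chromosome 2.

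Set against the partnered peaks of at least 400 bp, the order changed. Members differ from these peaks by the partner, which is part of the rule, so the ratios are a description. On the autosomes 9 of 22 intervals excluded 1, with 4 above and 5 below. Chromosome 19 then held a smaller share of members (ratio 0.812, 0.695 to 0.948). Chromosome 8 was at 1.55 (1.38 to 1.74) in this comparison and at 1.09 (1.004 to 1.17) against narrower FBS-only peaks. The interval of the ratio against narrower peaks included 1 at a −log10 q of 5 or more (1.02, 0.920 to 1.13) and at a width of 500 bp or more (1.09, 0.967 to 1.22). Against the partnered peaks, chromosome 21 was at 1.40 (1.14 to 1.71). The fullest windows of chromosome 8, from 38000001 to 39000000, which holds the growth factor receptor gene FGFR1, and from 128000001 to 129000000, which holds the growth regulator gene MYC, had 21 members each, with medians of 24 and 18 fragments. Narrower FBS-only peaks in these windows numbered 112 and 100. On chromosome 19, 17.8% of members lay within 500 bp of a depleted-serum peak and their median background was 2.84 times the lowest, against 11.9% and 2.04 times for narrower FBS-only peaks there. On chromosome 8 these values were 5.59% and 1.18 times for members and 2.99% and 1.05 times for narrower peaks, so chromosome 19 was higher in both classes.

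**Figure D3:**
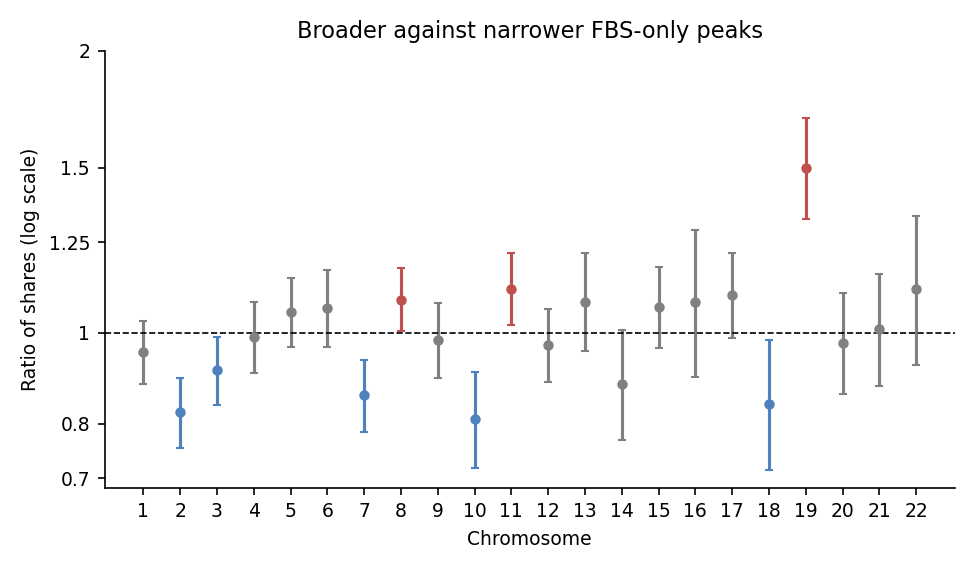
Share of the members on each chromosome divided by the share of the narrower FBS-only peaks (log scale), for the 22 autosomes, with exact conditional binomial 95% intervals. Intervals above 1 are red, those below 1 blue, and chromosome 19 (1.5) stands highest.

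Members were more often close to a depleted-serum peak than narrower FBS-only peaks were. The rule bars overlap but not closeness. A CSS or DHT peak lay within 500 bp of 934 members (9.62%, 9.04 to 10.22%) and of 4.32% of the narrower ones, so that the shares stood 5.30 percentage points apart (4.71 to 5.91, Newcombe's interval). Within 5 kb it was 2206 members (22.7%) against 16.2%, a difference of 6.5 points (5.64 to 7.38). The difference was about as large for CSS peaks (5.61 points, 4.83 to 6.42) as for DHT peaks (4.95 points, 4.2 to 5.73). The median gap was 16386 bp for members and 18989 bp for narrower peaks. Gaps run from edge to edge, and the part of width in this difference was not tested.

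The 934 members within 500 bp of a depleted-serum peak differed from the other 8777. They had a median of 19 fragments against 13, a local background of 2.64 against 1.33 times the lowest, and a lower fold enrichment, 4.34 against 4.80. For 535 of them (57.3%) the depleted-serum peak close by overlapped another FBS peak, so that the member stood beside a site shared between conditions. The same share was not counted for narrower FBS-only peaks, so it is not read as particular to the members.

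**Figure D4:**
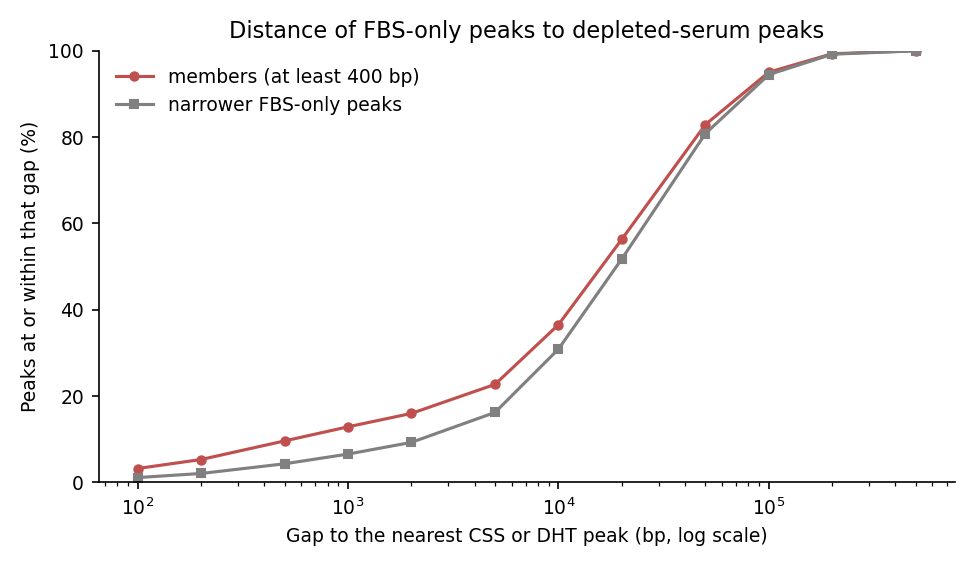
Cumulative share of FBS-only peaks (%) by the gap to the nearest CSS or DHT peak (log scale), for the members (circles) and the narrower peaks (squares). The curves stand 5.30 points apart at 500 bp and meet near 100000 bp, where they reach 95.03% and 94.5%.

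Other FBS peaks were close to members more often than to narrower peaks, mainly at short range. Another FBS peak lay within 1 kb of 2443 members (25.2%, 24.3 to 26.0%), against 17.3% of narrower FBS-only peaks and 43.8% of partnered peaks of at least 400 bp. The difference from narrower peaks was 7.86 points (6.97 to 8.77). Within 10 kb the shares of members and narrower peaks were 70.9% and 69.1%, a difference of 1.77 points (0.812 to 2.71). When both classes were limited to a −log10 q of 5 or more, this difference was 0.911 points (-0.397 to 2.19) and its interval included 0.

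Depth set how much can be said of the absence of a depleted-serum peak. Each member's pileup and background were multiplied by the ratio of the lists' lowest backgrounds, 0.197 for CSS and 0.148 for DHT, and compared with the smallest whole pileup that reaches the list's lowest −log10 p (3.55 in CSS and 3.59 in DHT). The median member would have had 2.76 fragments at the CSS depth, where the median level was 4, and 2.08 at the DHT depth, where it was 3. The scaled pileup reached the CSS level in 844 members (8.69%) and the levels of both lists in 282 (2.90%, 2.58 to 3.26%). A further 562 members reached the CSS level only. The other 8867 fell below both levels. For them this scaling does not tell a peak lost in depleted serum from one missed at the lower depth.

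The scaling takes each peak at its highest point and ignores the scatter of small counts. Over all FBS peaks of at least 400 bp, 70.8% (69.4 to 72.2%) of those that reached the CSS level had a CSS partner, and 34.4% (33.6 to 35.1%) of those that did not reach it also had one. For DHT the shares were 79.0% (77.2 to 80.8%) and 37.8% (37.1 to 38.5%). The partner is part of the rule, so these shares only describe how the levels behave.

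**Figure D5:**
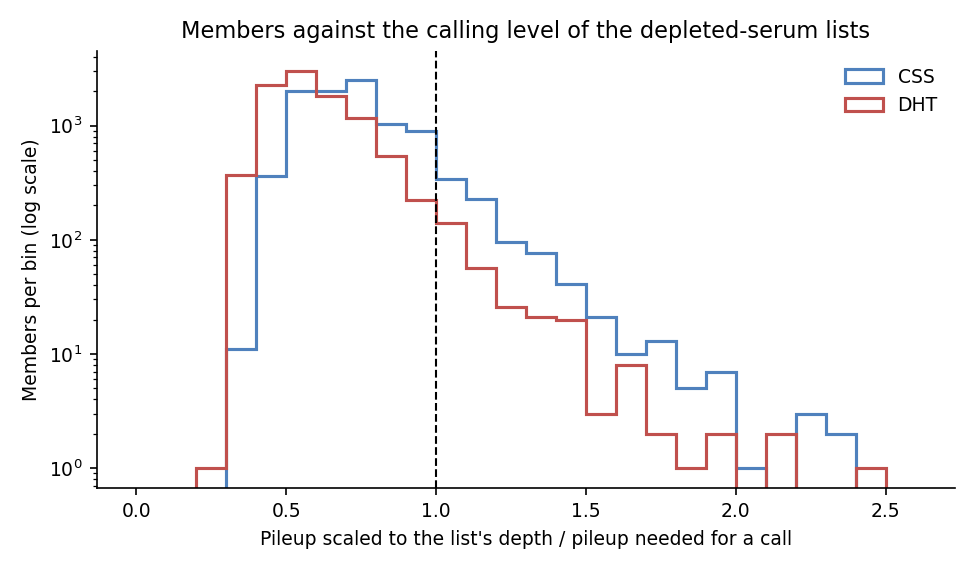
Number of members (log scale) by the ratio of their pileup, scaled to the depth of the CSS (blue) or DHT (red) list, to the pileup needed for a call there. Most members lie left of the dashed line at 1, with 844 at or beyond it for CSS and 282 for DHT.

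The 282 members that reached both levels had 21 to 146 fragments with a median of 29 and fold enrichments from 3.49 up, with a median of 8.18. They lay in 181 windows on all 23 chromosomes. The E2F3 window on chromosome 6 held 10, and the windows of 13q held 6 and 4. Outside the 5 windows, 203 of 9449 members (2.15%) reached both levels.

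The member chr11:93970813-93971721 scaled to 9.46 fragments against a level of 4 in CSS and to 7.12 against 4 in DHT, with no depleted-serum peak within 100000 bp. The member chr8:97247429-97247919, with 34 fragments, scaled to 6.70 against 4 and 5.04 against 3. At chr6:20618849-20619294 the values were 5.32 against 3 and 4.003 against 3, with the nearest CSS peak 146102 bp away and the nearest DHT peak 21493 bp away. The member chr11:114271279-114271794 scaled to 8.28 against 4 and 6.23 against 4, with a DHT peak 254 bp away. The wide members named above fell short: chr7:92462087-92463661 scaled to 4.73 against 6 in CSS and 3.56 against 5 in DHT, and chr1:235667062-235668568 to 4.14 against 5 and 3.11 against 4.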

How the data were processed

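ZBTB7A ChIP-seq was represented by 3 peak lists in narrowPeak format, 1 per condition. Reads had been placed on hg19 (GRCh37) and peaks called; the submitters' processing notes name MACS2 2.0.10.20131216, BWA 0.7.2-r351 and SAMtools 0.1.18, without their settings. Not given in the sources used here were the control library, the q-value threshold, the duplicate filter and how the 2 CSS and the 2 DHT libraries were combined. The fold enrichment (a ratio over background), −log10 p, −log10 q and the score of each peak are deposited by the authors, and fold and q were used only within a list. Peak pileup and background were solved from fold = (pileup + 1)/(background + 1) and the Poisson upper tail, and lists of unequal depth were compared through them. No scale factor of a control library was visible in the backgrounds.

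Shares have exact Clopper-Pearson intervals, differences Newcombe's and ratios of shares exact conditional binomial intervals. Partners overlapped by at least 1 bp, windows were counted by summit, and coordinates start at 1. Named were the 10 members with the highest fold (12 with ties), the 5 widest, 3 on each side of 400 bp and the 5 fullest windows, of which 1 window, with the members in it, and the ratio of its chromosome are not reported here; runs, the member with the most fragments and those named for their margin over the calling levels were chosen with their values in view. The members and lists were chosen with earlier results of these data known. Alternatives changed width, overlap, threshold, distance or windows. Genomic location, motifs and gene lists need an hg19 reference and were not run. Code was tested on simulated data, and its overlaps equalled those of bedtools 2.31.1. Software was scipy 1.17.1, pandas 2.3.3 and numpy 2.4.6 under Python 3.11.15, with figures by matplotlib 3.10.9.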

Additional observations from a re-analysis of the deposited data

Results flagged for a closer look

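Peaks of the same kind on sequences outside chromosomes 1 to 22 and X were not part of the members and are listed because their number was above 3. Chromosome Y held 34 FBS-only peaks of at least 400 bp, with fold enrichments of up to 8.04 and a −log10 q of up to 26.3. Contigs and alternate sequences of the assembly held 90, with fold enrichments of up to 10.15 and a −log10 q of up to 43.5.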

How the results depend on the processing

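Of 36 values under alternatives, 26 kept their direction and side of the interval or stayed within 1.5 times the reported count, 3 lost an interval that excluded no difference, 7 moved farther and 0 reversed. The number of members followed its definition: 27398 at a width of at least 300 bp and 4134 at 500 bp, 15183 when partners had to share 50% of both peaks and 14926 when summits had to lie within 100 bp, 5428 at a −log10 q of at least 5 and 3996 at a fold enrichment of at least 5. The ratio for chromosome 8 was 1.02 at a −log10 q of at least 5 and 1.09 at a width of at least 500 bp, with intervals that included 1. The difference in crowding within 10 kb was 0.911 points at a −log10 q of at least 5. With at least 2 times the calling level required, 3 members reached both levels in place of 282. The alternatives on calling levels were chosen after seeing the data. The cause was not tested except where the alternative itself removes peaks. No paired analysis was possible because the numbered CSS and DHT libraries reached the deposit as a single list each, and so leaving out a library was not possible either. Alternatives on genomic location and sequence were not run.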
